A study of Mus musculus with 6 samples.

Results

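The 10 genes described here are feedback inhibitors of mitogen-activated protein kinase (MAPK) signalling, followed in T cells activated with or without the chemokine CCL19. They are the phosphatase genes Dusp1, Dusp2, Dusp4, Dusp5, Dusp6 and Dusp10 and the adaptor genes Spry1, Spry2, Spred1 and Spred2. They were chosen by gene symbol from a deposited table of 24470 genes, which holds a row for all 10, and each of the 10 had enough counts to be among the 11666 genes tested. The cells were naive CD4+ T cells, the helper lineage before any encounter with antigen, isolated by magnetic sorting. They came from male C57BL/6J mice, from the spleen and from lymph nodes that drain the skin. No age of the animals was used here. All 6 samples were activated for 6 h on plastic coated with anti-CD3, which engages the T cell receptor, and anti-CD28, which supplies costimulation. In 3 samples recombinant CCL19 was added, a ligand of the receptor CCR7. The other 3, labelled NoCKN, had the same antibodies and no CCL19, so both groups were activated and no resting sample is part of the comparison. Libraries made from total RNA with a TruSeq RNA kit were sequenced, with 16978736 to 27429898 counts per library. The labels do not tell whether replicates are different mice, different wells or repeat libraries, so every p-value rests on a spread that may be technical.

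T cell receptor signals activate the MAPKs ERK, JNK and p38 through cascades of kinases, and the ERK branch starts with the small GTPase Ras. Activated MAPKs switch on genes whose products turn the pathway down again. Dual-specificity phosphatases (DUSPs) remove the activating phosphates from the MAPKs themselves. Sprouty and SPRED proteins act upstream, where they limit the activation of Ras and Raf. In T cells several of these genes are induced within hours of receptor stimulation, and their mRNA is widely read as a trace of recent MAPK activity.

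The start regions of 5 of the genes are shown because their mRNA levels are compared below and because 2 of the windows hold a motif tied to signal-induced transcription. Each window spans 250 bases before to 50 bases after the start of transcription, on the gene's own strand, from RefSeq on build GRCm38.p6. Windows were found for 9 of the 10 genes, without Dusp4. Capitals mark matches to the motifs named after the sequences. The windows are chr17:26508423-26508722 on the minus strand for Dusp1, chr19:53528895-53529194 on the plus strand for Dusp5, chr10:99262981-99263280 on the plus strand for Dusp6, chr3:37639697-37639996 on the plus strand for Spry1 and chr2:117120821-117121120 on the plus strand for Spred1.
Dusp1: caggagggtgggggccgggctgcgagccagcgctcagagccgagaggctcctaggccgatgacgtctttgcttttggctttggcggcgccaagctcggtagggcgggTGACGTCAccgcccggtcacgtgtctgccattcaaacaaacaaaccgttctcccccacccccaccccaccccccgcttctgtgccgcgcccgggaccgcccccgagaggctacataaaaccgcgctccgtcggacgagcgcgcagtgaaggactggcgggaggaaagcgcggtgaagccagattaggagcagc
Dusp5: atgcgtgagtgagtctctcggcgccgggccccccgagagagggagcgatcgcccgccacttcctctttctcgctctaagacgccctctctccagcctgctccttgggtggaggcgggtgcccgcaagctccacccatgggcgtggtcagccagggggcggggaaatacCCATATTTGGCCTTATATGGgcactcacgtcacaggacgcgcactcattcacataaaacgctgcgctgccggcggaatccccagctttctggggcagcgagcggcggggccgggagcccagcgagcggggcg
Dusp6: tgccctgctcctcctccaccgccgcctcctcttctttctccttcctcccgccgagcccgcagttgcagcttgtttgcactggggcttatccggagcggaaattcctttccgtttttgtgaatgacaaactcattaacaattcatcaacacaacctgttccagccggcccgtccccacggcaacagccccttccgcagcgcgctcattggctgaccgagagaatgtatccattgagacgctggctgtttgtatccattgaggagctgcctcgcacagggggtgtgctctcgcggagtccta
Spry1: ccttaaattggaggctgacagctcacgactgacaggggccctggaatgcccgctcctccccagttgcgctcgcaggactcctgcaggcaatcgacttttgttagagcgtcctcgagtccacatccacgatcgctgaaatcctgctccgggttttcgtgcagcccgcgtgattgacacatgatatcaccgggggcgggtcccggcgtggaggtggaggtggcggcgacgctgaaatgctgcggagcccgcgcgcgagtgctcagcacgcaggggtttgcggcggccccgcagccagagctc
Spred1: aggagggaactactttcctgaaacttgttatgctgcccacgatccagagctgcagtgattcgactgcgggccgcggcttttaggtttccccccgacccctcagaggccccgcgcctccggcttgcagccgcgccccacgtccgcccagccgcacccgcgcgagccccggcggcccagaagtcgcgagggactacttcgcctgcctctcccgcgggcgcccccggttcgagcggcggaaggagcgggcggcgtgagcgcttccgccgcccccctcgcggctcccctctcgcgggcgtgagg

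Both strands were searched for the cyclic AMP response element (CRE, TGACGTCA), the AP-1 site (TGACTCA), an EGR site (GCGGGGGCG), an ETS site (CCGGAAGT) and the CArG box, which is the site class bound by serum response factor. The Dusp1 window held 1 CRE, whose first base lies 143 bases upstream of the start, and 1.79% of the 32851 RefSeq windows of this length hold one. Dusp5 held 2 CArG boxes side by side, 82 and 72 bases upstream, against 1.63% of all windows with at least 1. Dusp2, whose window is not printed, held 1 EGR site 98 bases upstream, against 2.91% of all windows. None of the 9 windows held the AP-1 or the ETS letters, which occur in 5.20% and 3.89% of all windows. No match overlapped a match to another motif. These matches describe letters in a window and not bound sites.

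All 10 mRNAs were present after 6 h of activation, at levels that ranged widely. Levels are given as CPM, counts scaled to a common library size, and between genes as CPM divided by the length in kilobases of the longest transcript (CPM per kb). On the second scale, Dusp2 averaged 425 over the 6 libraries and Spry1 145. Only 0.862% of 11603 genes with a known length stood at or above Dusp2, and 2.96% at or above Spry1. Dusp2 encodes a nuclear phosphatase of ERK and p38 that lymphocytes induce on activation, and Spry1 encodes the adaptor Sprouty1. Together these genes supplied 79.9% to 82.5% of the summed CPM per kb of the 10 in each library.

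The other 8 genes formed lower tiers. Dusp10 (26.7 CPM per kb over the 6 libraries), Dusp6 (25.5), Dusp5 (21.4), Dusp4 (20.8) and Dusp1 (17.8) made up a middle tier. Spred2 (8.10) and Spred1 (7.65) came next, and Spry2 was last at 1.31. In this order, the ranges over libraries did not overlap between Dusp2 and Spry1, Spry1 and Dusp10, Dusp1 and Spred2, or Spred1 and Spry2. Within the middle tier they did overlap: Dusp10 exceeded Dusp6 in 4 of 6 libraries, Dusp5 exceeded Dusp4 in 5, and Dusp4 exceeded Dusp1 in 5. Dusp6 exceeded Dusp5 in all 6 libraries, by 1.10 to 1.25 times, although the ranges overlapped. Spred2 exceeded Spred1 in 4 of 6 libraries.

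With CCL19, 8 of the 10 genes had a log2 fold change above 0 and 2 below, where 49.8% of all tested genes lay above 0. Their median log2 fold change was 0.26, and the median of all tested genes was -0.00074. edgeR's quasi-likelihood test, adjusted over all tested genes with a threshold of 0.05, called 0 of the 10 higher and 0 lower. It called none of the 11666 genes in either direction (0%), and its lowest adjusted p over all genes was 0.0505, just above the threshold. DESeq2 gave an adjusted p to 9 of the 10, all but Spry2. Of these it called 2 higher, Spry1 and Spred1, against 6.55% of the 9613 genes to which it gave an adjusted p, and 0 lower, against 5.60%. At an unadjusted edgeR p under 0.05 there were 4 higher (Dusp4, Dusp6, Spry1 and Spred1), against 14.5% of tested genes, and 1 lower (Dusp10), against 13.0%. The libraries of the 2 groups did not overlap for 2 genes, Spry2 and Spred1, both higher, against 15.3% of tested genes, and for none lower, against 14.5%. The count of genes without overlap is close to its background, while the 4 of 10 higher at the unadjusted p exceed theirs. That excess was not tested. The authors' deposited table lists Spry1 and Spred1 as higher with CCL19 and none of the other 8. It lists 630 higher genes, 3.96% of the 15905 with any count, and 538 lower ones, 3.38%, and its 1168 genes are the 1168 that DESeq2 called here, so the list is no second piece of evidence.

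**Figure D1:**
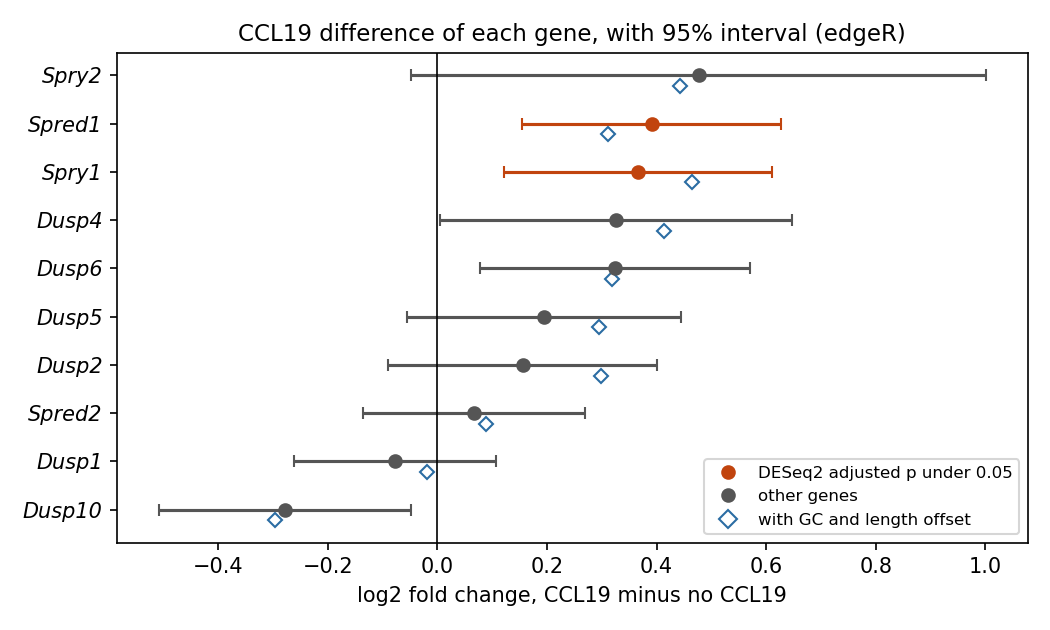
Log2 fold change of each gene (x axis, CCL19 minus no CCL19) from edgeR with its 95% interval, 3 libraries a group. Orange marks Spry1 and Spred1, the 2 genes that DESeq2 called, and open diamonds give the value with an offset for transcript GC and length; 8 of the 10 points lie above 0 and the intervals of Dusp4, Dusp6, Dusp10, Spry1 and Spred1 do not cross it.

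Among the 6 phosphatases, Dusp6 had the smallest p, while Dusp4 had a log2 fold change of the same size. Dusp6 encodes the cytoplasmic phosphatase that acts on ERK with high selectivity, and its mRNA is a common readout of ERK activity. Dusp6 (NCBI Gene 67603, mm10 chromosome 10, 99263231 to 99267489, plus strand) stood at 90.4, 80.5 and 67.1 CPM in CCL19 replicates 1 to 3 and at 56.3, 73.7 and 59.7 CPM in no-CCL19 replicates 1 to 3. CCL19 replicates 1 and 2 were above every no-CCL19 library, while CCL19 replicate 3 lay below no-CCL19 replicate 2, so the groups overlapped. The means were 79.4 ± 11.7 and 63.2 ± 9.25 CPM (SD, n = 3 each), a log2 fold change of 0.32 ± 0.11 (SE; 1.25-fold; 95% interval 0.08 to 0.57). The edgeR adjusted p was 0.0961 and that of DESeq2 0.0594, so neither passed.

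Dusp4 and Dusp5 encode nuclear phosphatases induced by ERK signals, Dusp5 being selective for ERK. Dusp4 (NCBI Gene 319520, mm10 chromosome 8, 34807610 to 34819894, plus strand) stood at 77.3, 62.8 and 49.98 CPM with CCL19 and at 40.01, 60.03 and 51.1 CPM without. Its spread was wide in both groups: the 3 CCL19 libraries covered 49.98 to 77.3 CPM, and CCL19 replicate 3 was below 2 of the 3 no-CCL19 libraries. The means were 63.4 ± 13.7 and 50.4 ± 10.03 CPM, with a log2 fold change of 0.33 ± 0.15 (edgeR adjusted p = 0.175, 95% interval 0.0045 to 0.65) that was 0.16 without CCL19 replicate 1. Dusp5 (NCBI Gene 240672, mm10 chromosome 19, 53529318 to 53541322, plus strand) stood at 64.2, 57.3 and 48.2 CPM with CCL19 and at 42.7, 57.1 and 48.1 CPM without. Only CCL19 replicate 1 was clearly above all no-CCL19 libraries, and the log2 fold change of 0.19 ± 0.12 did not pass (edgeR adjusted p = 0.296, 95% interval -0.05 to 0.44). Without CCL19 replicate 1 it was 0.09, and without no-CCL19 replicate 2 it was 0.31. An annotated antisense gene shares 338 bp with Dusp5 in GENCODE M21, and whether the counting used strand is unknown here, so reads of the 2 cannot be told apart.

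Dusp2, the most abundant of the 10, had groups that overlapped and was not called with all libraries. Dusp2 (NCBI Gene 13537, mm10 chromosome 2, 127336159 to 127338377, plus strand) stood at 814, 722 and 637 CPM with CCL19 and at 590.3, 768 and 592 CPM without. No-CCL19 replicate 2 was above 2 of the 3 CCL19 libraries. The log2 fold change was 0.16 ± 0.11 (1.11-fold; edgeR adjusted p = 0.399), with a 95% interval of -0.09 to 0.40. It was 0.06 without CCL19 replicate 1 and 0.29 without no-CCL19 replicate 2. Dusp1 encodes a nuclear phosphatase of p38, JNK and ERK that many stresses and mitogens induce. Dusp1 (NCBI Gene 19252, mm10 chromosome 17, 26505591 to 26508472, minus strand) stood at 41.3, 40.7 and 38.2 CPM with CCL19 and at 42.9, 45.4 and 38.3 CPM without. It varied least of these 6 DUSP genes across the CCL19 libraries, with means of 40.1 ± 1.64 and 42.2 ± 3.57 CPM, and its log2 fold change was -0.08 ± 0.09 (edgeR adjusted p = 0.590, 95% interval -0.26 to 0.11).

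Dusp10, a phosphatase of JNK and p38 rather than ERK, was the one gene of the 10 with a marked difference in the lower direction. Dusp10 (NCBI Gene 63953, mm10 chromosome 1, 184034461 to 184075636, plus strand) stood at 57.7, 63.5 and 80.9 CPM with CCL19 and at 75.7, 86.2 and 83.5 CPM without. CCL19 replicates 1 and 2 were below all no-CCL19 libraries, and CCL19 replicate 3 lay within their range. The means were 67.4 ± 12.0 and 81.8 ± 5.44 CPM, with a log2 fold change of -0.28 ± 0.11 (0.824-fold; 95% interval -0.51 to -0.05; edgeR adjusted p = 0.118; DESeq2 adjusted p = 0.0877).

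**Figure D2:**
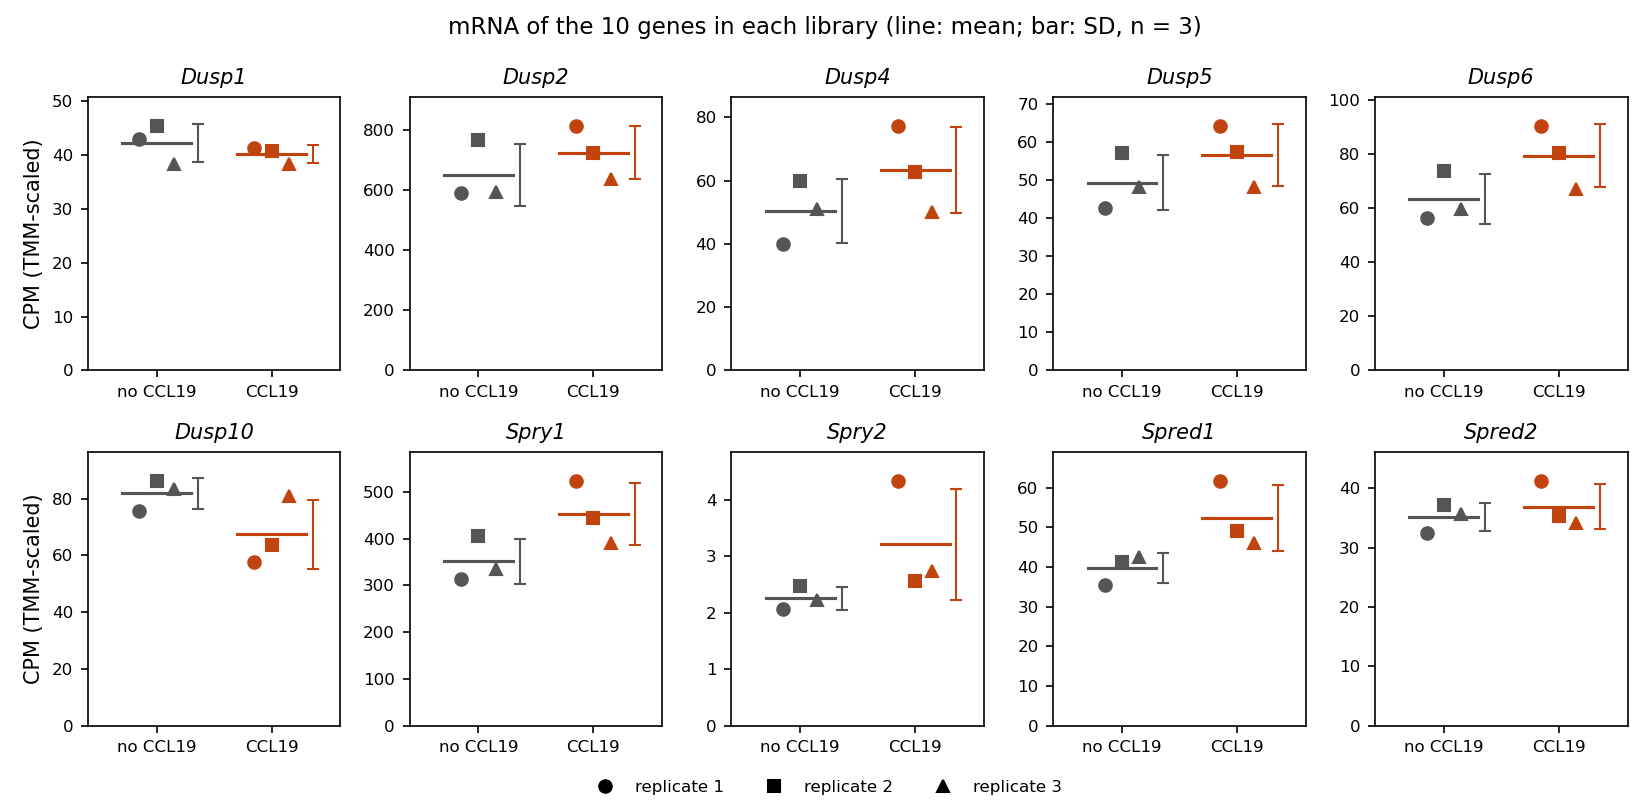
CPM scaled by TMM (y axis, from 0, own scale per gene) of the 10 genes in each library, with no CCL19 in grey and CCL19 in orange, horizontal lines at the means and bars of 1 SD (n = 3). Symbols give the replicate number; CCL19 replicate 1 is the highest library for 8 of the 10 genes, and for Dusp10 it is the lowest.

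Of the Sprouty genes, Spry1 was abundant and was called by DESeq2. Sprouty1 is induced by receptor signalling in T cells and restrains the path from receptor to Ras and ERK. Spry1 (NCBI Gene 24063, mm10 chromosome 3, 37639947 to 37644599, plus strand) stood at 524, 444 and 391 CPM with CCL19 and at 315, 405 and 334 CPM without. CCL19 replicates 1 and 2 were above all no-CCL19 libraries, and CCL19 replicate 3 lay just below no-CCL19 replicate 2, so the groups overlapped. The means were 453 ± 66.6 and 351 ± 47.4 CPM, with a log2 fold change of 0.37 ± 0.11 (1.29-fold; 95% interval 0.12 to 0.61; edgeR adjusted p = 0.0723; DESeq2 adjusted p = 0.0198). Its 6162 to 11823 counts per library give a counting error of 1.07% on average, far below the 14.7% and 13.5% by which replicates with and without CCL19 varied. An unclassified transcript on the opposite strand shares 710 bp with it, with the same limit on strand as for Dusp5.

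Spry2 encodes a relative of Sprouty1 and had the least depth of the 10. Spry2 (NCBI Gene 24064, mm10 chromosome 14, 105891947 to 105896819, minus strand) had 72, 68 and 59 counts with CCL19 and 50, 68 and 41 without, or 4.33, 2.55 and 2.74 against 2.07, 2.48 and 2.23 CPM. The groups did not overlap, yet CCL19 replicate 2 exceeded no-CCL19 replicate 2 by less than the 13.1% that counting error amounts to in a library. The log2 fold change was 0.48 ± 0.24 (edgeR adjusted p = 0.223; 95% interval -0.05 to 1.00), and DESeq2 gave it no adjusted p because of its low counts. This is the largest of the 10 values with all libraries, but without CCL19 replicate 1 it was 0.22, below Spred1 and Spry1, and over single libraries left out it ran from 0.22 to 0.63.

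The SPRED proteins join a Sprouty-type domain to a membrane-anchored scaffold that recruits neurofibromin, the Ras GTPase-activating protein, and so keep Ras inactive. Spred1 (NCBI Gene 114715, mm10 chromosome 2, 117121071 to 117182279, plus strand) stood at 61.7, 49.1 and 46.1 CPM with CCL19 and at 35.5, 41.3 and 42.6 CPM without. Every CCL19 library was above every no-CCL19 library, although the gap between CCL19 replicate 3 and no-CCL19 replicate 3 was small. The means were 52.3 ± 8.27 and 39.8 ± 3.81 CPM, with a log2 fold change of 0.39 ± 0.11 (1.31-fold; 95% interval 0.16 to 0.63; edgeR adjusted p = 0.0601; DESeq2 adjusted p = 0.0216). Spred2 (NCBI Gene 114716, mm10 chromosome 11, 19924442 to 20022597, plus strand) stood at 41.3, 35.4 and 34.2 CPM with CCL19 and at 32.5, 37.3 and 35.7 CPM without. CCL19 replicates 2 and 3 were inside the no-CCL19 range, and CCL19 replicate 1 was above it. The log2 fold change was 0.07 ± 0.09 (edgeR adjusted p = 0.679; 95% interval -0.14 to 0.27) and turned to -0.0205 without CCL19 replicate 1.

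The 2 calls of DESeq2 were lost without some of the libraries. Without CCL19 replicate 1 the log2 fold change of Spred1 was 0.26 and that of Spry1 0.25 (DESeq2 adjusted p = 0.211 and 0.192), and neither was called without CCL19 replicate 2, although the log2 fold changes were no smaller there, at 0.44 and 0.38 (DESeq2 adjusted p = 0.0822 and 0.0937). Without no-CCL19 replicate 1 they stood at 0.31 and 0.29, and DESeq2 gave Spred1 no adjusted p and Spry1 0.120. Without no-CCL19 replicate 3 Spred1 was called at 0.45 and Spry1, at 0.34, was not (DESeq2 adjusted p = 0.0206 and 0.0642). In that fit DESeq2 called 7.45% of genes with an adjusted p higher. Without CCL19 replicate 3, edgeR called 4 of the 10 higher (Dusp4, Dusp6, Spry1 and Spred1; 6.50% of all tested genes were called higher in that fit) and Dusp10 lower (6.97%).

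The same libraries were highest and lowest for most of the 10 genes. CCL19 replicate 1 was the highest library for 8 genes, all but Dusp1 and Dusp10, and no-CCL19 replicate 1 was the lowest for the same 8. CCL19 replicate 3 was among the upper 3 libraries for 3 genes only, while no-CCL19 replicate 2 was among them for 8. Relative to each gene's own mean over the 6 libraries on the log2 CPM scale, CCL19 replicate 1 stood at 0.36 for Dusp6, 0.40 for Spry1, 0.44 for Spred1 and 0.47 for Dusp4, and no-CCL19 replicate 1 at -0.32, -0.33, -0.35 and -0.48. The median log2 fold change of the 10 genes was 0.13 without CCL19 replicate 1 and 0.14 without no-CCL19 replicate 1, against 0.26 with all libraries. Over all genes with at least 10 counts in a pair of libraries, CCL19 replicate 3 was closest to no-CCL19 replicate 3, with a chi-square per degree of freedom of 5.19, against 11.7 and 16.8 to the others of its group. Genes of the naive state had their extremes in the same libraries, in the other direction: Tcf7, a transcription factor of naive T cells, stood at 970.1, 1043 and 1232 CPM with CCL19 and at 1593, 1265 and 1290.2 CPM without. The part of these genes' course in the values of the 10 was not tested.

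**Figure D3:**
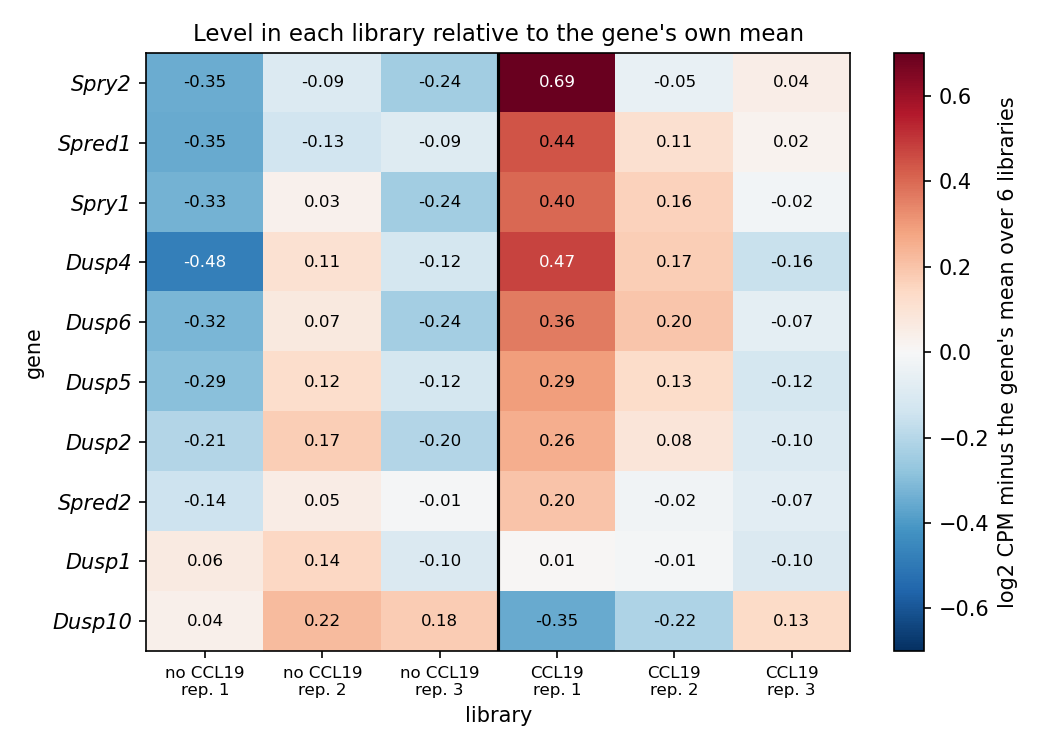
Log2 CPM of each gene (rows) in each library (columns) minus the gene's mean over the 6 libraries, with red above and blue below 0. The columns of CCL19 replicate 1 and no-CCL19 replicate 1 carry the extremes for 8 of the 10 genes. Dusp1 and Dusp10 are highest in no-CCL19 replicate 2, and Dusp10 at the bottom is lowest in CCL19 replicate 1 at -0.35.

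Ratios of counts within a library do not depend on how libraries are scaled, and 4 pairs of related genes were compared in this way as a description. The pairs were chosen with the behaviour of Spred1 and Spry1 known, and no share of pairs without overlap was computed over other genes. Among single tested genes the groups did not overlap for 15.3% higher and 14.5% lower. The log2 ratio of Spred1 to Spred2 was 0.58, 0.47 and 0.43 with CCL19 and 0.12, 0.15 and 0.25 without, with means of 0.49 ± 0.08 and 0.18 ± 0.07 (SD, n = 3) and groups that did not overlap. The counting error of this ratio in 1 library was 0.06 to 0.08, so the distance of 0.32 between the means exceeds both it and the spread between replicates. For Dusp5 to Dusp6, the ERK-selective phosphatases of nucleus and cytoplasm, the log2 ratio was -0.49, -0.49 and -0.48 with CCL19 and -0.40, -0.37 and -0.31 without. These groups did not overlap either. The distance of -0.13 between their means exceeds the counting error of 0.05 to 0.07 in 1 library and the SD of replicates (0.008 with CCL19, 0.043 without). With the offset for transcript GC and length described next, however, the log2 fold changes were 0.29 for Dusp5 and 0.32 for Dusp6, so little of this distance remained. For Spred1 and Spred2 the offset gave 0.31 and 0.09, against 0.39 and 0.07 without it, so their distance shrank but remained.

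The other pairs overlapped. Spry1 to Spry2 had a log2 ratio of 6.92, 7.44 and 7.16 with CCL19 and 7.25, 7.35 and 7.23 without, where the low counts of Spry2 give a counting error of 0.17 to 0.23. The ratio of Dusp4 to Dusp1 was 0.91, 0.62 and 0.39 with CCL19 and -0.10, 0.40 and 0.42 without. No-CCL19 replicate 1 was far below the other 5 libraries here.

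**Figure D4:**
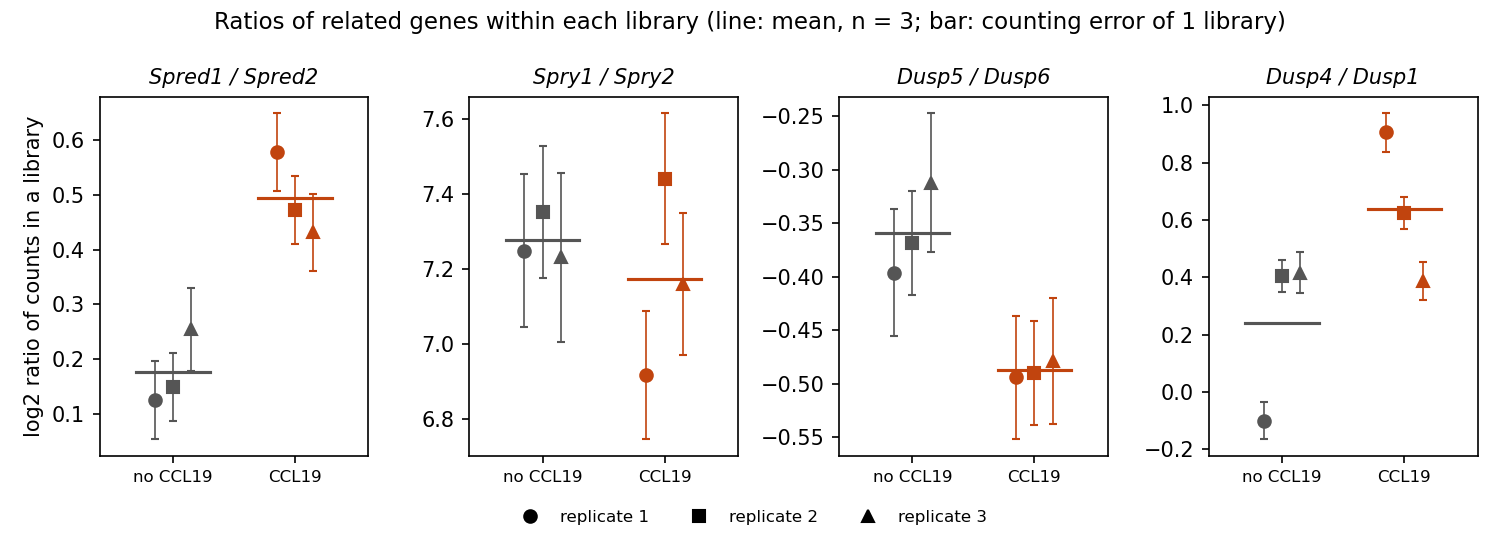
Log2 ratio of the counts of 2 related genes (y axis, own scale per panel) in each library, with no CCL19 in grey, CCL19 in orange, lines at the means (n = 3) and bars for the counting error of 1 library. Spred1 to Spred2 and Dusp5 to Dusp6 show groups that do not overlap, and the other 2 pairs overlap.

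Base composition was set beside these values because fold changes over all tested genes ran with the GC content of the transcript. From the lowest to the highest of 10 GC classes, the median log2 fold change went from 0.12 to -0.15. Spred1 (41.2% GC) lies in the lowest class, and with an offset for transcript GC and length its log2 fold change was 0.31 in place of 0.39. Spry1 (56.7%), Dusp4 (56.0%) and Dusp5 (56.7%) lie in the class next to the highest, whose median was -0.11, and Dusp2 (59.2%) in the highest. With the offset they stood at 0.46, 0.41, 0.29 and 0.30. Dusp6 and Dusp10, near the middle of the GC range, hardly moved, at 0.32 and -0.30, and Dusp1 went from -0.08 to -0.02. With the offset edgeR called none of the 10, with adjusted p of 0.0943 for Spry1 and 0.114 for Spred1. Single genes named below from the lists are given without this offset. Rasa2 (39.8% GC) and Mapk8 (40.1%), both higher with CCL19, lie in the lowest class. Rasal3 (57.4%), Mapk3 (57.6%) and Dusp7 (57.6%), all lower, lie in the class next to the highest. Myc (53.3%), Map2k3 (54.4%) and Fosl1 (58.5%), all higher, lie in classes with medians below 0.

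By a fixed measure of likeness, the root-mean-square difference of log2 CPM after each gene is centred on its own mean, the gene nearest to Spry1 among 9901 was Dusp6 (0.03 over 6 libraries). Nearest to Dusp6 were St6galnac4 and Mettl1 (0.03 each), to Spred1 Nt5dc3 (0.02) and Tada2a (0.03), to Dusp4 Prag1 (0.04) and Cad (0.06), and to Dusp5 Slc29a1 and Dot1l (0.03 each). For Dusp2 they were Hspbp1 (0.01) and Marcksl1 (0.02), for Dusp1 Tpst2 and Agpat1 (0.02 each), and for Spred2 Pik3c2b and Ncaph (0.03 each). Dusp10 was nearest to Leng1 and Kctd12b (0.06 each), both with log2 fold changes below 0 (-0.29 and -0.27), and Spry2 to Zfp599 (0.08) and Fnip2 (0.11).

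The other DUSP genes had a median close to that of all genes. Of 16 listed, 11 were tested and edgeR and DESeq2 called none, while at an unadjusted edgeR p under 0.05 there were 0 higher and 2 lower, close to the 13.0% of all tested genes that were lower by this rule. The median log2 fold change was 0.08 with all libraries and -0.0093 without CCL19 replicate 1. The lower ones were Dusp7, a cytoplasmic ERK phosphatase related to Dusp6, at 53.2 ± 1.90 against 63.2 ± 5.26 CPM (log2 fold change -0.25, edgeR adjusted p = 0.0797), and the small phosphatase Dusp23 at 4.07 ± 0.962 against 5.83 ± 0.614 CPM (-0.54, edgeR adjusted p = 0.0948). Dusp22 (0.18, edgeR adjusted p = 0.347) and Dusp12 (0.11, edgeR adjusted p = 0.424) had the smallest p in the other direction. Dusp7 and Dusp6 thus stood on opposite sides of 0, and the difference between them was not tested.

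Among other Sprouty, SPRED and Ras GTPase-activating proteins, the latter being the enzymes that switch Ras off, 12 of 13 genes were tested and edgeR called none. Of the 7 to which DESeq2 gave an adjusted p, it called Rasa2 higher and Rasal3 and Rasa3 lower. Over all genes with an adjusted p it called 6.55% higher and 5.60% lower, and the difference from these shares was not tested. Rasa2 stood at 135 ± 4.93 against 112 ± 7.48 CPM (0.27, DESeq2 adjusted p = 0.0205). Rasal3, found mainly in blood cells, stood at 552 ± 33.8 against 699 ± 63.4 CPM (-0.34, DESeq2 adjusted p = 0.00399), and Rasa3 at 535 ± 60.8 against 678 ± 65.8 CPM (-0.34, DESeq2 adjusted p = 0.0106). Spry4, the remaining Sprouty gene with enough counts, stood at 2.05, 1.92 and 1.72 CPM with CCL19 and at 1.20, 1.09 and 1.09 CPM without (0.74, edgeR adjusted p = 0.0980). Its groups did not overlap, and DESeq2 gave it no adjusted p because of its low counts. Nf1, the neurofibromin that SPRED proteins recruit, had a log2 fold change of 0.14 (edgeR adjusted p = 0.253) and is named outside the rule for named genes, after its value was seen.

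The genes of the MAPK cascades were split in direction. Of 23 genes from the receptor adaptors through Ras and Raf to ERK and its RSK kinases, 10 were above 0 and 13 below, with a median log2 fold change of -0.02, and edgeR called none. DESeq2, which gave all 23 an adjusted p, called 1 higher and 2 lower, near its backgrounds of 6.55% and 5.60%. The higher one was the adaptor Lcp2 (SLP-76), at 838 ± 74.5 against 684 ± 46.0 CPM (0.29, DESeq2 adjusted p = 0.0159). The lower ones were the Rap activator Rasgrp2 and the ERK1 gene Mapk3. Rasgrp2 stood at 116 ± 16.7 against 168 ± 29.3 CPM (-0.54, DESeq2 adjusted p = 0.00246) and Mapk3 at 36.2 ± 2.61 against 45.8 ± 4.06 CPM (-0.34, DESeq2 adjusted p = 0.0197). Nras, the other gene the rule names here, had 0.16 (edgeR adjusted p = 0.175). Of 20 tested genes of the JNK and p38 cascades, which hold the kinases that Dusp10 and Dusp1 dephosphorylate and their regulators, 10 were above 0 and 10 below, with a median of -0.0058. Of the 19 with a DESeq2 adjusted p, 1 was called higher and 1 lower, near the same backgrounds. The higher one was the p38 kinase kinase Map2k3, at 651 ± 66.6 against 526 ± 74.4 CPM (0.31, DESeq2 adjusted p = 0.0370). The lower one was Map3k3, at 119 ± 6.93 against 145 ± 11.3 CPM (-0.29, DESeq2 adjusted p = 0.0177). Mapk8, which encodes JNK1, had 0.25 (DESeq2 adjusted p = 0.0554) and Gadd45a -0.47 (DESeq2 adjusted p = 0.121).

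Genes of the early ERK response, apart from the feedback inhibitors, formed a list that also held the transcription factors Elk1, Elk3 and Elk4. Of 20 tested, 17 were above 0, against 49.8% of all tested genes, and this excess was not tested. The median log2 fold change of the list was 0.09, with 0 called by edgeR. The median was 0.05 without CCL19 replicate 1 or no-CCL19 replicate 3 and 0.18 without no-CCL19 replicate 2. At an unadjusted edgeR p under 0.05 there were 4 higher, against 14.5% of all tested genes, and 0 lower. DESeq2 called 1 of the 18 to which it gave an adjusted p, near its background of 6.55%. This was Myc, a driver of growth in activated T cells, at 921 ± 133 against 685 ± 104 CPM (0.43, DESeq2 adjusted p = 0.00948). Fosl1, an AP-1 subunit, stood at 56.0 ± 9.95 against 43.1 ± 7.26 CPM (0.37, DESeq2 adjusted p = 0.0550). The smallest p below 0 belonged to Ier5 (-0.05) and Elk3 (-0.02), neither of which passed. With the offset for transcript GC and length the median of this list was 0.23, and that of the 10 inhibitors was 0.31. The same offset gave 0.19 for the other Sprouty, SPRED and Ras GTPase-activating proteins and 0.06 for the JNK and p38 cascades. It gave 0.00026 for the genes from receptor to ERK and -0.0033 for the other DUSP genes.

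**Figure D5:**
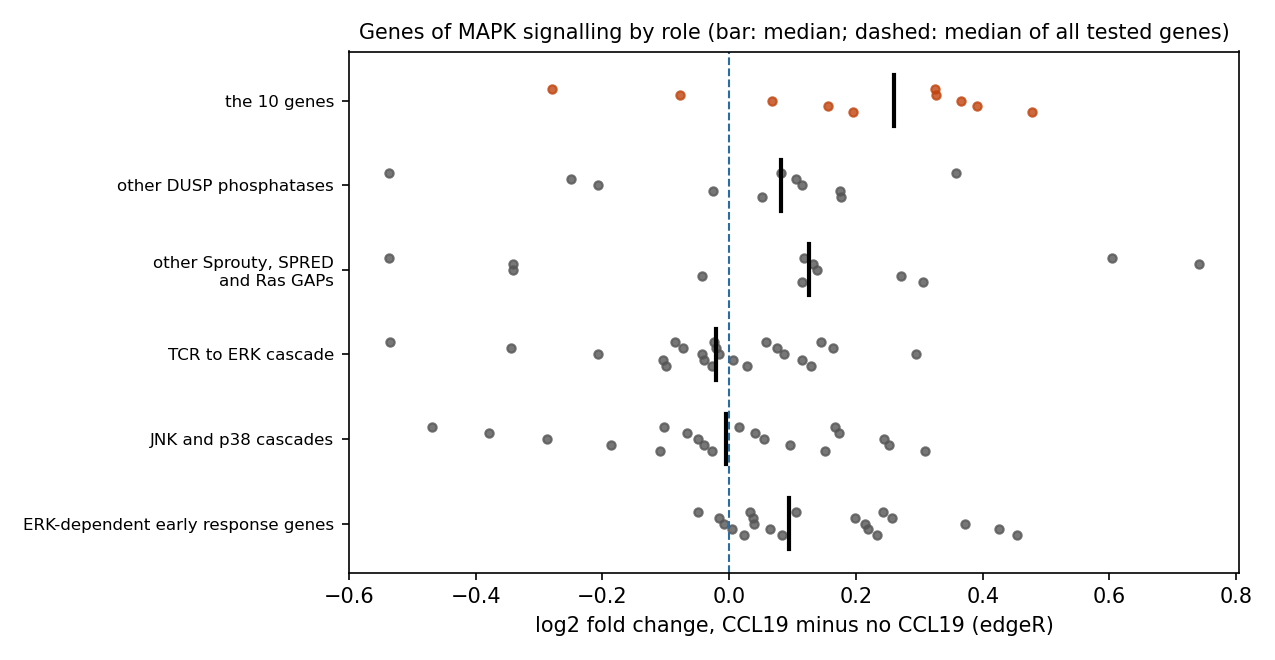
Log2 fold change (x axis, edgeR, CCL19 minus no CCL19) of each tested gene, with the 10 inhibitors in orange, 5 lists of related genes in grey, black bars at the medians and a dashed line at the median of all tested genes. The median of the 10 is 0.26, and those of the 5 lists lie between -0.02 and 0.13.

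The libraries matched their labelled cell type: Cd4 averaged 602 CPM and Ccr7, the CCL19 receptor gene, 402 CPM over the 6 libraries. Summed markers of naive CD4+ T cells ran from 3538 to 4246 CPM with CCL19 and from 4153 to 4965 CPM without. DESeq2 called 3 of these 7 markers, Ccr7, Lef1 and Tcf7, all lower with CCL19, against 5.60% of all genes with an adjusted p. Markers of other cells were low and overlapped between the groups in their sums, none of them called by DESeq2. They came to 12.4 to 17.2 CPM with CCL19 and 14.6 to 15.0 CPM without for 2 CD8 T cell genes, 14.3 to 19.0 and 17.8 to 21.0 CPM for 4 B cell genes, 9.27 to 14.1 and 9.77 to 15.0 CPM for 7 myeloid and dendritic cell genes, 5.48 to 5.75 and 5.001 to 6.68 CPM for 3 natural killer cell genes, 23.8 to 26.8 and 23.8 to 27.8 CPM for 2 regulatory T cell genes, 15.3 to 16.1 and 11.3 to 18.0 CPM for 4 erythroid genes, and under 0.26 CPM for 3 stromal genes. In bulk RNA, fewer cells of a kind and less RNA per cell cannot be told apart.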

How the data were processed

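The data were RNA libraries of 6 samples, 3 with CCL19 and 3 without, grouped by their titles. Per the submitters' processing notes, the build was mm10 and the tools were STAR 2.5 (an aligner) and featureCounts 1.5.0-p1 from Subread (a read counter). The deposited table holds raw read counts, and a second deposited list, made with DESeq2 1.28.1 per the submitters' processing notes, gives changed genes and their direction in words, a column of type other than a measurement. For its threshold, for strand and for the annotation release, the settings were not given in the sources used here.

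Genes were filtered with filterByExpr (11666 of 24470 kept) and compared with edgeR 4.0.16 (TMM, quasi-likelihood F test, no block) in R 4.3.3, with Benjamini-Hochberg adjustment over all tested genes and a threshold of 0.05. SE and 95% intervals come from that fit. CPM are scaled by TMM, and log2 CPM used a prior count of 2. DESeq2 1.42.0 (Wald test, independent filtering at 0.1) and limma 3.58.1 (voom) were alternatives, as were DESeq2 size factors, other filters, a robust prior, a replicate block, an offset for GC content and length (natural splines of 5 degrees of freedom each) and leaving out each library. GC content and length of the longest transcript came from GENCODE M21 (GRCm38), matched by NCBI Gene ID or symbol. The tests were tried on simulated counts. Counting error is the square root of the counts, and depth is in the counts per library. Figures were drawn with matplotlib 3.10.9.

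The genes, lists and rules were chosen with earlier results of these data known. The rule names the 10 genes, the 2 genes of smallest edgeR p in each direction from each list, the 2 genes nearest in pattern to each of the 10 with mean log2 CPM from 1 upward and no predicted-gene or clone name, and Cd4 and Ccr7. A gene that the rule names is not reported here. The smallest chi-square per degree of freedom between libraries was 5.19, so none was a copy of another.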

Additional observations from a re-analysis of the deposited data

How the results depend on the processing

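The log2 fold change kept its direction in all 22 alternatives for 9 of the 10 genes. Spred2 turned to -0.0205 in edgeR and -0.0196 in DESeq2 without CCL19 replicate 1. Over all genes edgeR called 0 higher and 0 lower, DESeq2 630 and 538, edgeR with no filter 803 and 797, and edgeR with a robust prior 267 and 262. Leaving out 1 library gave 0 to 772 higher and 0 to 827 lower in edgeR. In DESeq2, without CCL19 replicates 1, 2 and 3 and no-CCL19 replicates 1, 2 and 3 in turn, 20, 56, 905, 60, 604 and 709 were higher and 35, 67, 799, 45, 406 and 549 lower. DESeq2 called Spred1 (0.39) and Spry1 (0.37). With no filter edgeR called Dusp4 (0.32), Dusp6 (0.32), Dusp10 (-0.28), Spry1 (0.36), Spred1 (0.39), against 5.05% and 5.01% of all genes higher and lower. Over single libraries left out, edgeR gave 0.16 to 0.47 for Dusp4, 0.22 to 0.45 for Dusp6, -0.44 to -0.19 for Dusp10, 0.25 to 0.48 for Spry1, 0.26 to 0.47 for Spred1 and -0.02 to 0.11 for Spred2, and called the first 5 only without CCL19 replicate 3. DESeq2 without that library called Dusp4 (0.47), Dusp6 (0.43), Dusp10 (-0.43), Spry1 (0.46), Spred1 (0.48). There 9.2% of the 9836 genes with an adjusted p were called higher and 8.12% lower. Without no-CCL19 replicate 2 DESeq2 called Dusp2 (0.29), Dusp4 (0.48), Dusp6 (0.45), Spry1 (0.48), Spred1 (0.42), against 7.02% of 8607 genes higher and 4.72% lower. Without no-CCL19 replicate 3 it called Spred1 (0.45), against 7.45% of 9522 genes higher and 5.77% lower. With the replicate block edgeR called 0 genes (lowest adjusted p = 0.162), with 0.39 for Spred1 and 0.36 for Spry1, and DESeq2 called 103 higher and 75 lower, none of the 10. The labels do not state whether the replicate numbers pair the samples. Deviations of same-numbered libraries from their group means correlated at -0.16, 0.08 and -0.02 across genes. Only CCL19 replicate 2 correlated best with its own number. CCL19 replicate 1 did so with no-CCL19 replicate 2 (0.15), CCL19 replicate 3 with no-CCL19 replicate 1 (0.22), and every no-CCL19 library with another number. Even so, 3 libraries a group are too few to settle the question. The offset for GC content and length moved the median of the other DUSP genes from 0.08 to -0.0033. The cause of these shifts was not tested. Depth limits Spry2 and Spry4 most.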
